A study of Mus musculus with 4 samples.

Results

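Around the outer wall of 1 infarcted mouse heart lay a patch of capture spots that the deposited position file does not mark as tissue but whose counts were deposited with the marked ones. The patch was chosen by position and depth alone. It was the largest connected group of unmarked spots on the hexagonal array of the 5 dpi section (days post-infarction) labelled male, 319 spots on array rows 3 to 57 and columns 26 to 115, and its members were the 256 spots of this group that held at least 500 UMIs (unique molecular identifiers, each standing for 1 captured transcript). These 256 spots were part of 623 unmarked spots and 2047 spots in the matrix of this section, and of 6619 spots in the matrices of the whole series. The remaining 63 patch spots held fewer than 500 UMIs and entered no comparison. The patch was set against the rim of the marked tissue in the same section, that is, the 339 marked spots with fewer than 6 marked neighbours, here called edge spots. Of these, 101 touched the patch. The other 238 lay beside other unmarked positions, which need not be on the outer rim, since the section held 29 clusters of unmarked spots.

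The series holds Visium sections of 4 hearts from Col1a1-GFP mice 8 to 12 weeks old, in which a Col1a1 promoter drives a GFP reporter that marks collagen-producing cells, counted here as the EGFP transcript. The hearts were 1 healthy control, 1 heart at 3 dpi and 2 hearts at 5 dpi, labelled female and male, with infarction by ligation of the left anterior descending coronary artery, and the frozen tissue had RNA integrity numbers from 7.2 to 7.7. The authors chose tissue spots manually on the image, and only the matrix of the section labelled male also held unmarked spots (623), while 5 of its marked spots had no column. Whether its position file is the one with which the matrix was made is not given in the sources used here, so unmarked means only a tissue flag of 0 in the deposited file. Sex is used below only as a name, since 4 Y-linked genes together had 704 UMIs in the section labelled female, 1 in the section labelled male and 0 in each of the other sections. The matrices held from 6372017 to 12130474 UMIs. A Visium spot is a small area that can cover several cells of different types, and all spots of the patch and its edge came from 1 section of 1 heart. No test between them was therefore possible, levels are summed UMIs per 1000000 UMIs outside 13 mitochondrially encoded genes (CPM), and all 95% intervals (exact Poisson for a level, exact conditional binomial for a ratio of levels) cover counting error only. Lower counts from fewer cells and from less RNA per cell cannot be told apart.

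The outer surface of the heart is covered by epicardium, a mesothelium, which is a flat epithelium that expresses keratins, uroplakins and the surface protein mesothelin and secretes the lubricating fluid of the pericardial cavity. After infarction the epicardium is known to be activated and to re-express developmental genes such as Wt1, while monocytes enter the dead muscle and become macrophages that clear debris. Fibroblasts are activated alongside and lay down collagen and other matrix. The pericardial cavity also has macrophages of its own, which depend on the transcription factor Gata6.

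The positions matched the name given to the patch. All 256 spots lay farther from the centre of the marked tissue than their nearest marked spots, the patch covered 8 of 12 sectors of 30 degrees around that centre, and for 254 of 256 spots (99.22%) the nearest marked spots were mostly low in cardiomyocyte RNA. Both defining mesothelial markers were detected in it. Msln, which encodes mesothelin, had 51 UMIs in the patch (76.9 CPM, against 9.11 in touching edge spots and 12.1 in all edge spots). Upk3b, a uroplakin, had only 10 UMIs (15.1 CPM, against 3.04 in touching edge spots from 2 UMIs). Msln was seen in 30 of 256 patch spots (11.7%, exact binomial interval 8.05 to 16.3%) and in 5 of 101 touching edge spots (4.95%, 1.63 to 11.2%), although the latter were deeper. After each spot was thinned to 500 UMIs the shares were 2.75% (1.11 to 5.57%) and 1.98% (0.241 to 6.97%).

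**Figure D1:**
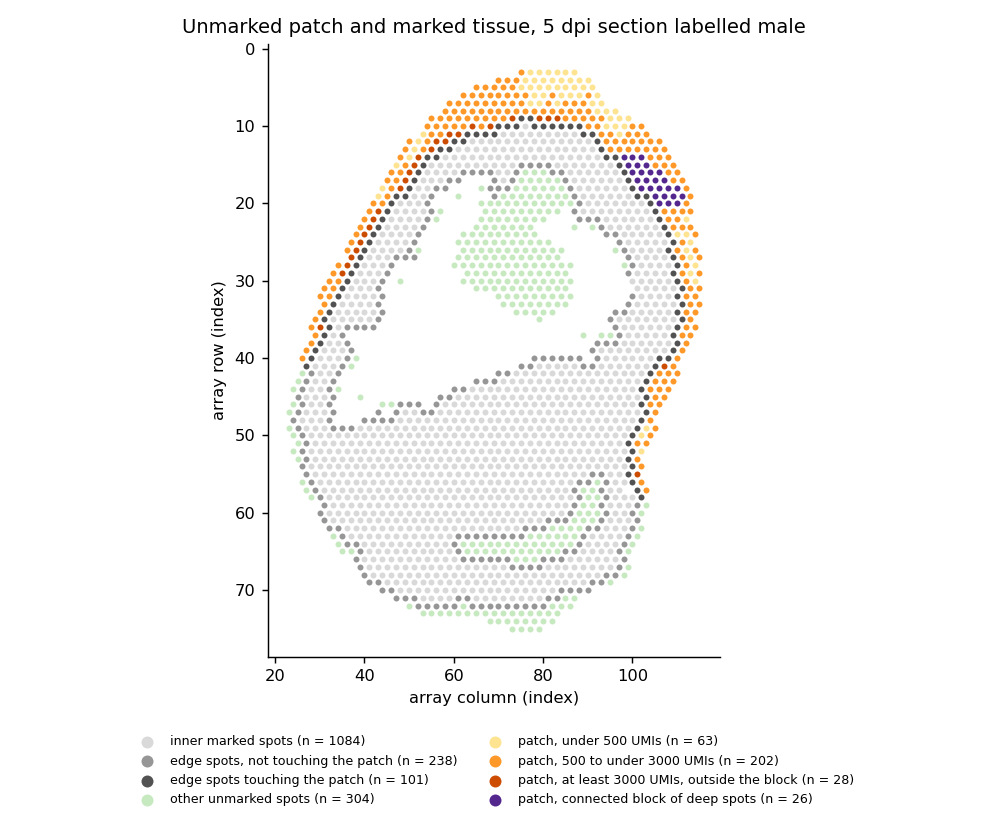
Map of the 5 dpi section labelled male by array row and column (indices), with each spot coloured by class: inner marked spots, edge spots that do or do not touch the patch, patch spots under 500 UMIs, from 500 to under 3000 UMIs, or with at least 3000 UMIs inside or outside the block, and other unmarked spots. The patch runs along the upper left, upper and right outer rim, and the block of 26 deep spots sits at its upper right on rows 14 to 20.

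The patch was shallow and very uneven. Its spots had a median of 1228.5 UMIs (502 to 17224) and of 774 genes, against medians of 6927 UMIs in edge spots, 6757 in touching edge spots and 6424.5 in the 1084 inner marked spots. Depth fell with distance from the marked tissue, counted in spots along the array. The 98 spots at step 1 had a median of 2108 UMIs, the 69 spots at step 2 had 1017, the 41 spots at step 3 had 930 and the 48 spots at step 4 or beyond had 984. Thus, among spots with at least 500 UMIs, the main fall was between the spots next to the tissue and all others. The 63 patch spots below that minimum, with a median of 362 UMIs, are left out. A further fall outward could therefore not be seen in full. Without the block of deep spots described below, the medians were 1953.5 at step 1, 935 at step 2 and 863 at step 3 and beyond. Complexity at equal depth was also alike: after thinning to 500 UMIs a spot showed a median of 382 genes in the patch, 369 at the edge and 380 in touching edge spots. The mitochondrial share of UMIs was 2.05% in the patch, 3.00% in touching edge spots, 12.8% in the other edge spots and 15.7% in inner spots.

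A few deep spots held most of the patch's RNA. The 54 spots with at least 3000 UMIs contributed 65.3% of all patch UMIs, and the 202 shallower spots, with a median of 1009, contributed 34.7%. Of the 54 deep spots, 26 formed 1 connected block on rows 14 to 20 and columns 98 to 111, with a median of 12308 UMIs (3019 to 17224), deeper than the marked edge, and a median of 3745 genes. The block reached from step 1 to step 4 and alone held 42.8% of the patch UMIs. The other 28 deep spots were scattered, all lay at step 1, and had a median of 4831 UMIs. Because the block carried so much of any sum over the patch, levels are given below for the whole patch, for the block, and for the 230 patch spots without it, whose median was 1115 UMIs.

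**Figure D2:**
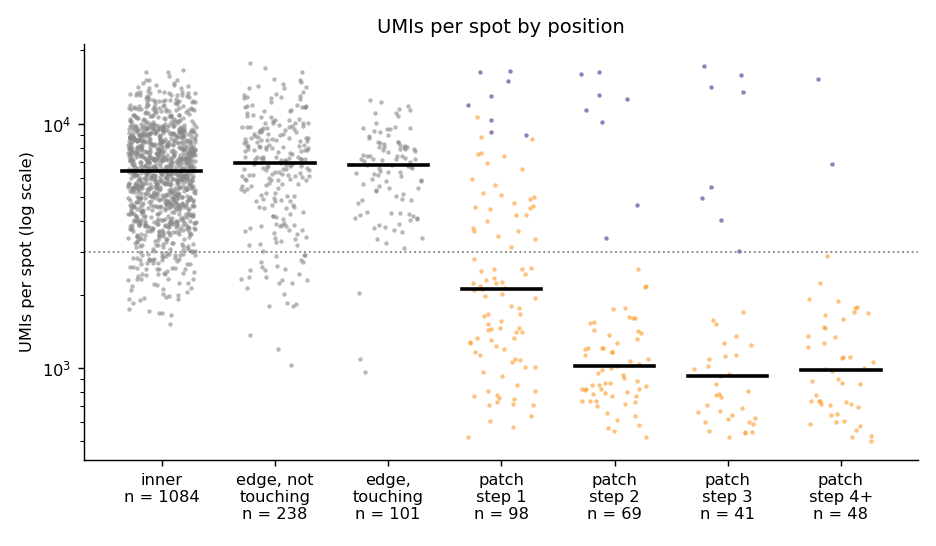
UMIs per spot (log scale) for inner marked spots, edge spots and patch spots by steps from the nearest marked spot, with black bars at the medians, block spots in purple and a line at 3000 UMIs. Outside the block all 28 deep patch spots are at step 1, whereas block spots stay above the line out to step 4.

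Against all edge spots, 3399 genes reached 50 CPM on one side, and of these 220 were at least 2-fold higher in the patch (6.47%) and 333 at least 2-fold lower (9.8%), with a median log2 ratio of 0.17. TMM scaling, which shifted all log2 ratios by -0.18, gave 141 and 408, and scaling to all UMIs gave 295 and 281. Against the touching edge the difference was smaller, with 94 of 3434 genes at least 2-fold higher (2.74%), 123 lower (3.58%) and a median log2 ratio of 0.01. The touching edge itself differed from the rest of the edge in 220 genes higher (6.5%) and 332 lower (9.81%) of 3384. These counts cannot be set beside those of the patch over the whole edge, which includes the touching spots. Against the rest of the edge alone, the patch was at least 2-fold higher in 411 of 3444 genes, and the lower count is not given here. Of the 220 genes higher than in all edge spots, 82 (37.3%) were also among the 94 higher than in touching edge spots. Without the block, 60 of 3516 genes were higher (1.71%) and 65 lower (1.85%) than in the touching edge, whereas the block alone was higher in 268 of 3568 genes (7.51%) and lower in 368 (10.3%).

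Among the 15 genes with the highest ratio over all edge spots were Wnt4, Serpinb2, Ccl24, Prtn3, Krt8, Upk1b, F10, Tnfaip6, Il33, Stmn4, Ltc4s, Lgals7, Dmkn and Wt1. Krt8, Upk1b and Wt1 belong to the mesothelial list, and Msln, outside the 15, was 6.37-fold higher than in all edge spots. The ratios of the genes named over all edge spots ran from 7.58 for Wt1 to 27.9 for Wnt4, and those over touching edge spots from 2.98 for Wt1 to 10.7 for Wnt4.

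Of all lists with at least 50 UMIs, the mesothelial one had the highest ratio of patch over touching edge. Of its 16 genes, 4 reached the floor of 50 CPM (Msln, Upk1b, Krt8 and Wt1), all through the patch only, which by itself favoured a ratio above 1, so their count is no support. Summed over the 16 genes, the level was 461.6 CPM in the patch, 143.5 in all edge spots and 113.8 in touching edge spots, or 4.06-fold the touching edge (3.14 to 5.29). Without the block it was 214.7 CPM, 1.89-fold the touching edge (1.36 to 2.62). Against all edge spots the ratio was 3.22, and 1.07 after each spot was thinned to 500 UMIs. The share of spots with any UMI of the list was not higher in the patch beyond counting error: at an equal 500 UMIs per spot it was 12.2% (8.41 to 16.8%), against 9.9% in touching edge spots (4.85 to 17.5%) and 11.8% in the other edge spots (7.96 to 16.6%), and without thinning it was 30.5%, 34.7% and 49.6%. Upk1b, a tetraspanin partner of the uroplakins, was at 69.4 CPM against 7.59 in the touching edge, 9.14-fold (3.65 to 29.5). Krt8, a keratin of simple epithelia, was at 76.9 against 13.7, 5.63-fold (2.75 to 13.01), although after thinning every spot to 500 UMIs, which left few UMIs of it, the ratio over all edge spots was 0.665. Wt1, a transcription factor of the epicardium, was at 63.4 against 21.3, 2.98-fold (1.596 to 5.91), and it stood lower still, at 2.68, in edge spots away from the patch. The block held most of these transcripts: Upk1b was at 129.5 CPM in the block, 6.72 in the other deep spots and 35.0 in the shallow spots. Krt8 and Wt1 had the same order, with 143.5 and 115.5 CPM in the block and 26.5 and 23.9 in the rest of the patch.

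Msln was measured outside the block as well. It was at 112 CPM in the block (32 UMIs), 60.4 in the other deep spots and 43.8 in the shallow spots, against 9.11 in the touching edge. The value of the other deep spots rested on 9 UMIs, of which 4 came from 1 spot at 1079 CPM, and without that spot, left out after seeing the data, it was 34.4, a ratio of 3.78 over the touching edge (0.913 to 14.9). Without the block Msln was 5.53-fold the touching edge (2.12 to 16.9), from 19 UMIs, and 4.41-fold when that spot was also left out (1.62 to 13.9). The intervals of the same ratio without the block reached below 1 for Upk1b (3.14-fold, 0.946 to 11.9), for Krt8 (1.94-fold, 0.709 to 5.40) and for Wt1 (1.12-fold, 0.429 to 2.79). Per spot, Msln had a median of 70.1 CPM in the block, with 10 of 26 spots at 0, while 23 of the other 28 deep spots and 96 of 101 touching edge spots were at 0.

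Among secreted products of serosal surfaces, Tnfaip6, which encodes a hyaluronan-binding protein, led with 167.4 CPM in the patch, 318.6 in the block and 53.0 without it, against 24.3 in the touching edge. The ratio over the touching edge was 6.90 (4.06 to 12.5) with the block and 2.18 (1.07 to 4.51) without it. The 7 genes of this list together were 3.44-fold the touching edge (2.46 to 4.88) and 1.82-fold without the block (1.19 to 2.79), while Itln1 was at 0. Wnt4, a ligand of the Wnt family, had 43 UMIs in the patch and 4 in the touching edge, which is 64.9 against 6.07 CPM. Its ratio was 10.7 (3.88 to 41.0) with the block and 5.68 (1.75 to 23.9) without. Il33, an alarmin cytokine of barrier and stromal cells, was at 328.8 CPM against 72.9 in the touching edge, 4.51-fold (3.29 to 6.31). It was at 633.6 CPM in the block, 33.6 in the other deep spots and 140.1 in the shallow spots, the last 1.92-fold the touching edge (1.19 to 3.07). Over all spots outside the block the ratio was 1.35 (0.853 to 2.11).

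Serpinb2, Ccl24, Prtn3 and Ltc4s, each known to be made by myeloid cells, were higher in the patch and highest in the block. Serpinb2, an inhibitor of plasminogen activators that macrophages make, was at 330.4 CPM against 48.6 in the touching edge, 6.80-fold (4.68 to 10.2), and at 665.1 in the block. In single block spots it had a median of 474.1 CPM and a highest value of 1912, and only 2 of 26 spots had none. Of the other deep spots 26 of 28 had none, with a highest value of 290.3, and of the touching edge spots 84 of 101, with a highest value of 821.7. Without the block it was at 76.9, 1.58-fold the touching edge (0.924 to 2.70). Ccl24, an eosinophil-attracting chemokine, kept a higher level without the block, 53.0 CPM against 16.7 in the touching edge, 3.18-fold (1.45 to 7.34). Prtn3, a serine protease of myeloid granules, was at 318.6 CPM in the block, 45.1 in the rest of the patch and 33.4 in the touching edge. Ltc4s, the leukotriene C4 synthase, followed the same order at 773.6, 114 and 91.1.

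The lists around these genes moved less. Of the serous cavity macrophage list only Serpinb2, 1 of 3 genes compared, passed 2-fold upward against either rim (2.74% of all genes against the touching edge, 6.47% against all edge spots), and Gata6 itself was at 51.3 CPM in the patch and 37.9 in the touching edge, a ratio of 1.35 (0.783 to 2.36). Summed, this list was 2.97-fold the touching edge, and 1.31-fold without the block (0.965 to 1.76). The sum of the recruited monocyte list is not reported here. Of its genes, Plac8 was at 182.5 against 186.7 and Chil3 at 51.3 against 39.5, which do not stand for the whole list. For general and lipid-associated macrophage genes the direction depended on the rim. The general list was at 0.805 of the touching edge (0.779 to 0.832) but 1.33-fold all edge spots (1.29 to 1.37), and Lyz2, lysozyme, was at 5194 CPM in the patch, 6509 in the touching edge and 3448 in all edge spots. The lipid-associated list was at 0.800 of the touching edge (0.780 to 0.819) but 1.22-fold all edge spots (1.19 to 1.24), and Spp1, osteopontin, was at 1235, 1797 and 1014. Neutrophil genes were lower than in the touching edge, at 0.423 of it (0.351 to 0.507), but not beyond counting error than in all edge spots (0.956, 0.801 to 1.14). S100a9, a calcium-binding protein of neutrophil granules, was at 110.1 against 308.1 CPM, so that the touching edge was 2.80-fold the patch (2.13 to 3.71), against 120.3 in all edge spots (ratio 0.916, 0.696 to 1.19).

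**Figure D3:**
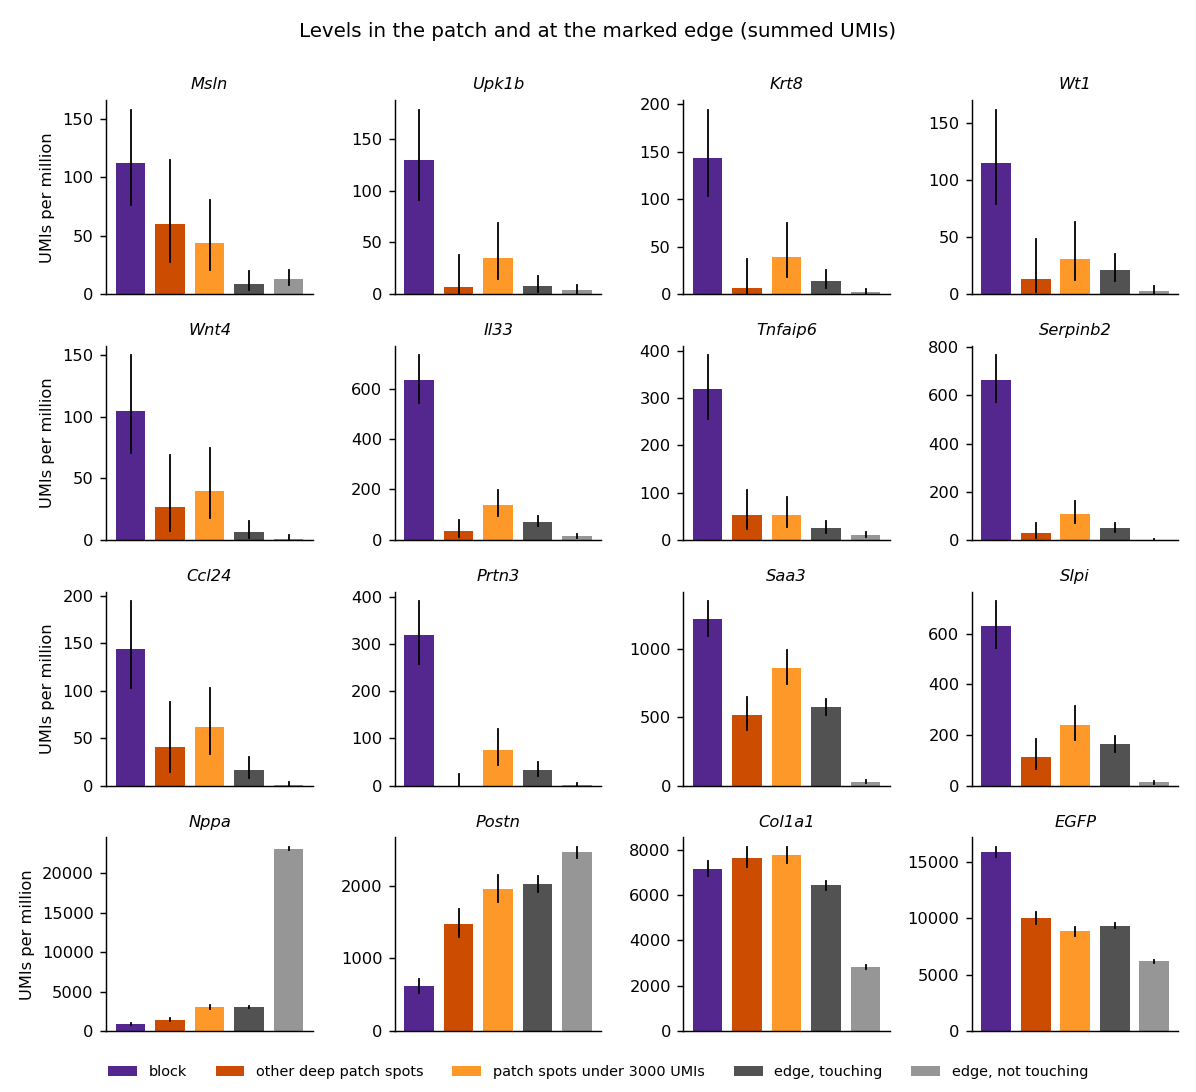
CPM of summed spots (bars from 0, exact 95% Poisson intervals as lines) for 16 genes including the reporter in the block, the other deep patch spots, patch spots under 3000 UMIs, touching edge spots and other edge spots. For Msln every patch bar is above both edge bars, whereas for Upk1b, Krt8, Il33, Serpinb2 and Prtn3 the block is far above all other classes.

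Acute phase and matrix genes gave a mixed picture. Saa3, a serum amyloid made in tissue, was at 938.3 CPM in the patch, 572.2 in the touching edge and 28.8 in the other edge spots, and Slpi, a secreted protease inhibitor, was at 380.1, 162.4 and 12.7. Serpina3n, another protease inhibitor, went the other way: it was at 31.5 CPM in the block, 371.1 in the rest of the patch and 594.9 in the touching edge. Over the 8 genes the patch was 2.20-fold the whole edge but 0.957 of the touching edge (0.892 to 1.03). Timp1, an inhibitor of matrix proteases, was at 5144 CPM against 3087 in the touching edge, and 4246 without the block. The matricellular genes Tnc and Thbs1 were at 764.8 and 585.3 CPM against 323.3 and 286.8, and they were the 2 of 16 fibrillar matrix genes that passed 2-fold upward against either rim, where 2.74% of all genes did so against the touching edge and 6.47% against all edge spots. Comp, a cartilage matrix protein, was the 1 that passed downward (3.58% and 9.8% of all genes). Without the block 0 of 16 passed upward against the touching edge, where 1.71% of all genes did.

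Col1a1, which encodes a chain of type I collagen, and the reporter were higher in the patch than in the marked tissue beside it, EGFP only through the block. Col1a1 was at 7476 CPM in the patch and 6427 in touching edge spots, 1.16-fold (1.12 to 1.21), against 2814 in other edge spots. EGFP was at 12146 and 9340, 1.3-fold (1.26 to 1.35), with 15886 in the block and 9314 without it, where the ratio was 0.997 (0.956 to 1.04). The 16 fibrillar matrix genes together were 1.03-fold the touching edge. Cthrc1, a collagen triple helix repeat protein of activated fibroblasts, was at 432.9 CPM against 384 in the touching edge, 1.13-fold (0.949 to 1.34), and it was lower than the 550.5 of edge spots low in cardiomyocyte RNA, at 0.786 of them (0.686 to 0.900). Postn, periostin, was lower: 1272 CPM in the patch against 2022 in touching edge spots and 616.1 in the block, where single spots ran from 112.7 to 1502 with a median of 644.5. EGFP in the same 26 spots ran from 4395 to 46743, with a median of 13674. The higher EGFP and the lower Postn level were thus measured in the same spots.

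Transcripts of heart muscle were the lowest group. All 12 cardiomyocyte genes were at least 2-fold lower in the patch than in all edge spots and than in touching edge spots, where 9.8% and 3.58% of all genes were, with median log2 ratios of -3.57 and -1.26. Summed, they were at 3249 CPM in the patch, 7725 in touching edge spots and 31712 in all edge spots. The 15 genes with the lowest ratio to all edge spots were nearly all of muscle: Fitm1, Tuba8, Clip4, Myh7, Cox8b, Hrc, Tcap, Smyd1, Ckm, Tnni3, Mylk3, Cox6a2, Myl2, Myl3 and Fabp3. Myl2, the ventricular myosin regulatory light chain, was at 242.9 CPM in the patch, 77.0 in the block and 488.7 in the touching edge. Nppa, the atrial natriuretic peptide that stressed ventricular muscle also makes, was at 1760 CPM against 3111 in touching edge spots and 23130 in other edge spots. It was lowest in the block, at 899.7, and highest in the shallow patch spots, at 3052, near the touching edge. The part of this lower muscle RNA in the other ratios was not tested. Without the block, 0 of 12 cardiomyocyte genes were 2-fold lower than in the touching edge, as 1.85% of all genes were.

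**Figure D4:**
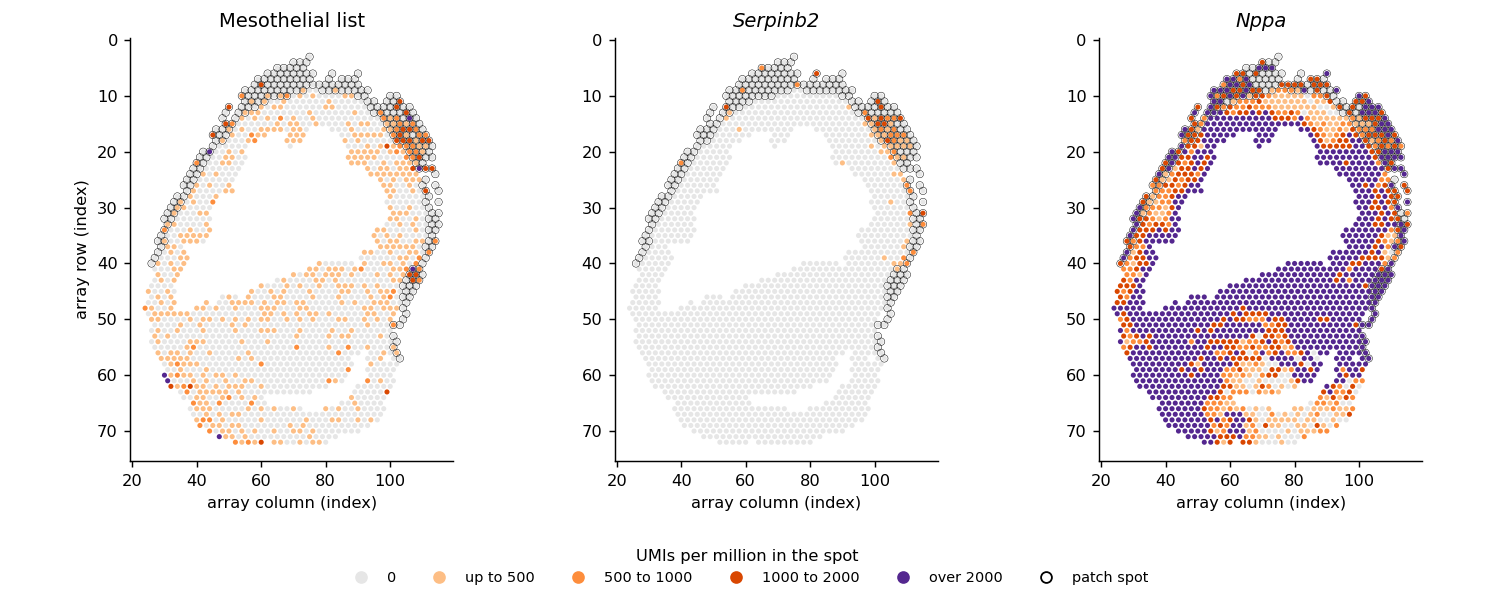
CPM in each spot (binned colours) for the summed mesothelial list, Serpinb2 and Nppa on the array of the 5 dpi section labelled male, with patch spots ringed; in a shallow spot 1 UMI already gives a high value. Mesothelial and Serpinb2 counts gather in the block at the upper right, and Nppa is high in most marked spots away from the patch.

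Lists of other immune cells and tissues were at low levels both in the patch and at the edge: mast cell genes were at 19.6 CPM in the patch (13 UMIs) and 23.2 in all edge spots, adipocyte genes at 21.1 (14 UMIs) and 20.0, T and NK cell genes at 15.1 (10 UMIs) and 23.2, B and plasma cell genes at 6.03 (4 UMIs) and 20.9, and skeletal muscle genes at 27.1 (18 UMIs) and 45.5. Genes of neighbouring organs (lung, liver and thymus) had 1 UMI in the patch. The defining genes Ms4a1, Cd3e, Mcpt4, Adipoq and Sftpc were at 0 in it. Endothelial genes were at 918.6 CPM, 1572 in the touching edge and 357.1 in the block. Erythroid genes were at 6507 against 8167 and 11999 in touching and all edge spots. MHC class II genes were at 1148 against 1679, with 570.6 in the block. Against all edge spots 0 of 4 genes passed 2-fold, where 6.47% of all genes were higher and 9.8% lower. Of the rest, the platelet list was at 1178 CPM against 936.4 in the touching edge (Pf4, platelet factor 4, at 1143 against 916.7), matrix proteases and inhibitors at 6424 against 4078, reparative fibroblast markers at 9174 against 8886, resting fibroblast genes at 2140 against 2774, and mural cell genes at 1566 against 1754. Resident macrophage genes were at 187 against 230.7, lymphatic endothelial genes at 178 against 173, interferon genes at 2201 against 2718, heme and iron genes at 17195 against 23861 (but 15956 in all edge spots), cycling genes at 490.2 against 540.3, immediate early genes at 553.6 against 494.8, atrial genes at 1780 against 3125 and border cardiomyocyte genes at 3687 against 6828. Of the 34 lists with genes in the files, 7 were at least 2-fold higher than in all edge spots and 4 at least 2-fold lower.

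**Figure D5:**
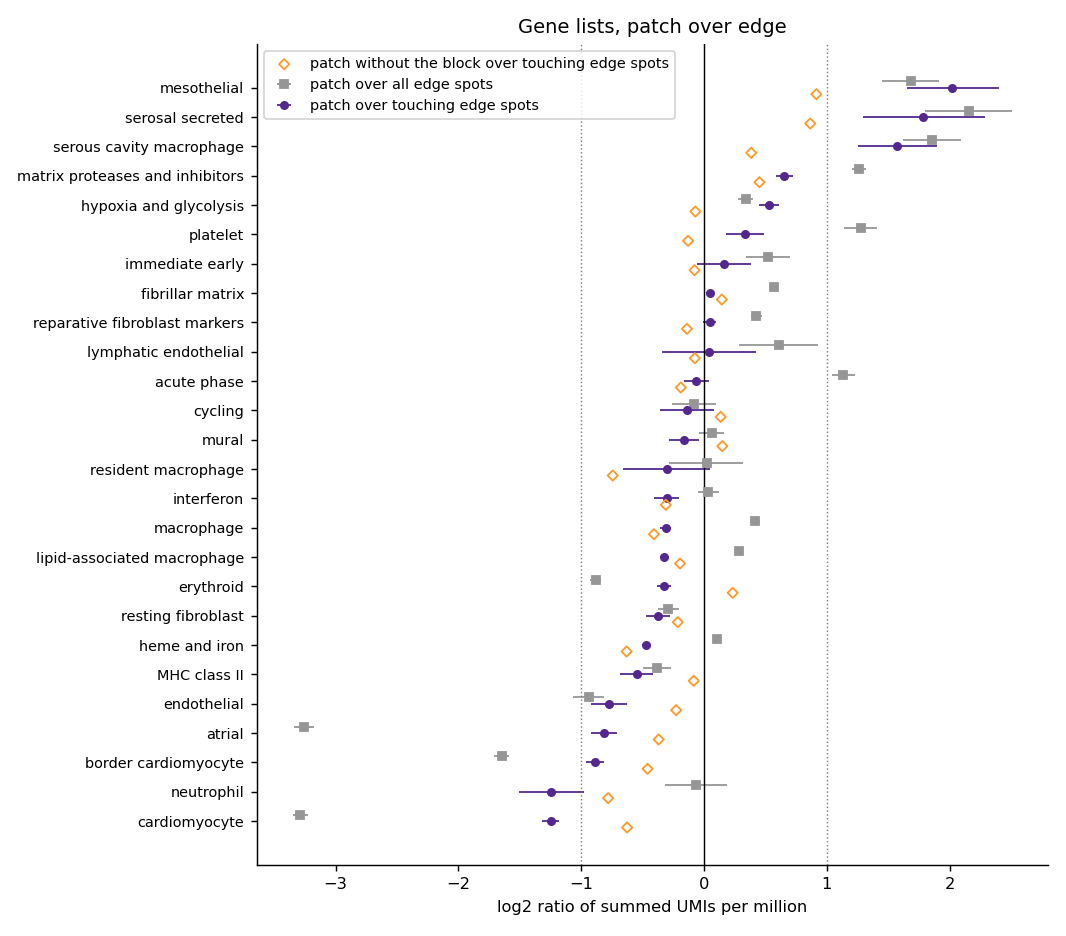
Log2 ratio of summed CPM, patch over all edge spots (grey squares) and over touching edge spots (purple dots), with exact 95% intervals, and patch without the block over touching edge spots (open diamonds), for lists with at least 50 UMIs; dotted lines mark 2-fold. Mesothelial, serosal and serous cavity macrophage lists are farthest to the right, and their diamonds lie between 0 and 1.

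The block was set apart from the rest of the patch by more genes than the patch from the touching edge: 260 of 3609 genes were at least 2-fold higher in it (7.2%) and 337 lower (9.34%). Block membership was set by depth after the data had been seen, not by any gene. The genes with the highest ratio were Car9, Wfdc21, Ociad2, Pfkfb3, Sugct, F7, Ms4a8a, Ifitm6, Serpinb2, F10, Hopx, Marco, Prtn3, Fcna and Ltc4s. Car9, a carbonic anhydrase switched on in low oxygen, had 17 UMIs in the block and 0 in the rest of the patch. Pfkfb3, a regulator of glycolysis, was 10.4-fold higher (4.41 to 29.6), and the hypoxia and glycolysis list was at 6616 CPM in the block, against 3152 in the touching edge. Within that list Ldha, lactate dehydrogenase, was at 2051 in the block and 986 in the rest, Pgk1, a glycolytic kinase, at 1407 and 461.2, and Bnip3, a mitophagy receptor, at 287.1 and 68.9. The coagulation factors F7 and F10 were 9.25-fold (3.23 to 36.3) and 8.19-fold higher (4.17 to 17.9). Marco and Fcna, a scavenger receptor and a ficolin of macrophages, had 18 and 95 UMIs in the block against 3 and 18 in the rest.

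Among the 15 genes with the lowest ratio of block over rest, 12 had at most 1 UMI in the block. Aplnr, the apelin receptor of endothelium, had 0 UMIs in it and 29 in the rest of the patch, Plvap, a protein of endothelial diaphragms, 1 and 42, Kdr, a VEGF receptor, 1 and 20, and Pdgfrb, a receptor of pericytes and fibroblasts, 3 and 42. Ccl8, a monocyte-attracting chemokine, had 1 and 40. Serpina3n was 11.8-fold higher in the rest than in the block, from 140 and 9 UMIs. The mitochondrial share was 1.37% in the block and 2.56% in the rest, and depth differed by the choice of the block; their part in these differences was not tested.

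Some of the high levels were also measured beside the block, from few UMIs. The 30 shallower patch spots within 2 spots of it, with a median of 1369 UMIs, had Il33 at 414.1 CPM (17 UMIs), Serpinb2 at 243.6 (10 UMIs), Upk1b at 146.2 (6 UMIs) and the mesothelial list at 462.9 (19 UMIs). Their ratios over the touching edge had wide intervals, 5.69 for Il33 (3.06 to 10.1), 5.02 for Serpinb2 (2.20 to 10.5) and 19.3 for Upk1b (4.90 to 79.8). The 200 patch spots farther away had 59.5, 56.5, 8.92 and 184.4. Msln and Saa3 differed less between them, at 73.1 (3 UMIs) and 47.6 CPM for Msln and 779.6 and 719.8 for Saa3. The 9 marked edge spots beside the block, deep themselves with a median of 7020 UMIs, were lower than the block in the genes compared here. The block was 4.597-fold higher for Serpinb2 (2.44 to 9.74), 6.26-fold for Il33 (2.98 to 15.8), 4.48-fold for Upk1b (1.16 to 38.3, from 2 UMIs beside it) and 4.01-fold for Saa3 (2.58 to 6.56), and Msln had 32 UMIs in it and 0 beside it. The mesothelial list was at 787.6 CPM in the block and 289.4 in these edge spots.

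By steps from the tissue, 161 of 3688 genes were at least 2-fold higher at step 3 and beyond than at step 1 (4.37%) and 261 lower (7.08%), with a median log2 ratio of -0.04. The block touched this comparison directly, since 10 of the 89 outer spots belonged to it and held 100418 of their 179672 UMIs. The 5 genes with the highest ratio were Ccbe1, Galnt6, Pappa, Thoc6 and Tnn, and the 5 lowest were Ppp1r7, Dpf2, Bcam, Oas1a and Rtp4, all from few UMIs (Ccbe1 10 against 1, Ppp1r7 0 against 18). Il33 was higher in the outer spots, 642.8 CPM against 127.7 at step 1, 5.03-fold (3.51 to 7.33), and 4.39-fold without the block (2.11 to 9.39). Serpinb2 was at 426.6 against 207.9, 2.05-fold (1.46 to 2.88), and 2.82-fold without the block (1.13 to 6.97). Msln was at 62.6 against 71.3, 0.878-fold (0.388 to 1.86), and Saa3 at 671.2 against 1001.

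The next largest patch of unmarked spots, 174 spots of the same section with a median of 6405 UMIs, was unlike the outer one. Of 3283 genes, 321 were at least 2-fold higher in the outer patch (9.78%) and 120 lower (3.66%), with a median log2 ratio of 0.26. Msln, Upk1b, Krt8, Saa3 and Serpinb2 had the highest ratios, with Msln at 51 UMIs against 1 and Saa3 25.9-fold higher (18.8 to 36.6). Alas2, Hba-a2, Hba-a1 and Hbb-bt, which all are expressed in red cells, were among the 5 lowest. The erythroid list was at 6507 CPM in the outer patch and 109682 in the other. After thinning to 500 UMIs, Nppa was seen in 56.9% of outer patch spots (50.5 to 63%) and 97.7% of the other (94.2 to 99.4%). With TMM scaling the split between the patches turned, to 174 higher and 193 lower.

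Whether the genes of the patch are genes of a heart's rim in general was asked in the 3 sections that kept no unmarked spots, by edgeR's quasi-likelihood test of summed edge spots against summed inner spots with section as a block. Of 10955 genes, 12 were higher at the edge (0.11%) and 0 lower (0%) at a Benjamini-Hochberg adjusted p of 0.05, and at an unadjusted p of 0.05 there were 215 higher and 280 lower. DESeq2 called 6 higher and 0 lower, the same fit without the section block called 0, and leaving out the 3 dpi section gave 19 higher and 4 lower, leaving out the 5 dpi section labelled female 7 and 3, of which 4 were among the 12. Among the 12 were Cfd, Upk1b, Nkain4, Krt8, Msln, Prtn3, Lgals7, Slpi, Saa3, Hp and Spon2, and 9 of the 12, all but Cfd, Nkain4 and Hp, were among the 220 genes higher in the patch than in all edge spots. Msln rose by 1.78 on the log2 scale (SE 0.236, edgeR adjusted p = 0.00023) and Upk1b by 2.55 (SE 0.372, edgeR adjusted p = 0.000726). In the control section Msln was at 17.3 CPM at the edge and 1.24 inside, at 3 dpi at 8.62 and 0.498, and in the 5 dpi section labelled female at 90.1 and 28.7.

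Other leading genes of the patch did not pass this test. Il33 had a log2 difference of 0.08 (edgeR adjusted p = 1), Serpinb2 1.15 (adjusted p = 1) and Wnt4 1.52 (edgeR adjusted p = 0.809), and Upk3b had 1.86 (edgeR adjusted p = 0.131). Of the 218 patch-high genes that could be tested, 168 had a positive log2 difference, with a median of 0.15, where all 10955 genes had 5027 positive and a median of -0.02. Of the 332 testable genes that were lower in the patch, 34 had a positive difference and 0 were called. The 3 hearts were 1 control, 1 at 3 dpi and 1 at 5 dpi.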

How the data were processed

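RNA of 4 heart sections was captured on Visium arrays. Per the methods, the authors aligned reads with Space Ranger to an Ensembl-based mouse reference with an added GFP sequence (the submitters' processing notes list mm10), chose tissue spots by hand in Loupe Browser, and deposited UMI counts per gene and spot for 21885 genes, which are used here with symbols and no coordinates. The position files hold a tissue flag per spot. Every column of the matrices was used, and 5 marked spots had no column in the matrix of the section labelled male.

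Marked spots entered from 500 UMIs and 250 genes upward where mitochondrial UMIs made up no more than 50%, and patch spots from 500 UMIs upward. Counts were summed over the spots of a class and divided by the class's UMIs outside 13 mitochondrially encoded genes (CPM). With 1 section per side, a gene was called at 2-fold among genes of at least 50 CPM on one side. Intervals are exact at 95% and cover counting error only; spots of 1 section share their source. Depth was compared after thinning to 500 UMIs. Edge spots low in cardiomyocyte RNA were an alternative rim.

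Edge against inner spots was tested on summed counts of 3 sections with edgeR 4.0.16 (quasi-likelihood, TMM, section as a block, adjusted p under 0.05) in R 4.3.3, where limma 3.58.1 was loaded, and DESeq2 1.42.0 was an alternative. On simulated counts of 10955 genes with 200 changed, this test recovered 54% of 2-fold and 91% of 4-fold changes, and 2.68% of calls were false. Sums and intervals came from scipy 1.17.1 and numpy 2.4.6 in Python 3.11.15, tables from pandas 2.3.3 and plots from matplotlib 3.10.9.

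Named were the 15 highest and 15 lowest genes of patch over edge, the 5 highest and 5 lowest of the step and patch comparisons, Msln, Upk3b, EGFP, Col1a1, Postn and Cthrc1, and of each list the members past 2-fold and up to 4 of the highest level. The members and the 35 lists (292 genes) were chosen with earlier results of these data known. The limit of 3000 UMIs, the block, the spots near it and its leading genes were chosen after seeing these counts. The nuclear RNA list had no gene in the files, Ighm, Igkc, Trac and Trbc2 were not analysed here, and Aldoa had more than 1 feature, of which one was at 0 in the patch. A few named genes and the list sums that rest on them are not reported here. No sequence bears on these comparisons and none is shown.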

Additional observations from a re-analysis of the deposited data

How the results depend on the processing

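No paired analysis was possible because the groups share fewer than 2 replicate numbers, so no sections of different groups could be matched by number. The edge test compared edge and inner spots within each section through the section block, and its value without that block is given below. The ratio of median UMIs per spot, patch over edge, was 0.177 and became 0.149 and 0.274 with a minimum of 250 and 1000 UMIs, 0.304 at step 1 only, 0.142 at steps 2 and beyond, 0.966 and 0.146 for patch spots at or above and below 3000 UMIs, and 1.78 for the block alone. The last 3 of these, and settings named below as the block, 3000 UMIs or low in cardiomyocyte RNA, and all those of the step and patch comparisons, were chosen after seeing the data.

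The count of 220 genes higher in the patch became 94 against touching edge spots, 411 against the other edge spots, 134 against edge spots low in cardiomyocyte RNA, 141 with TMM scaling (a log2 shift of -0.18), 595 after thinning to 500 UMIs, 811, 106 and 478 with a floor of 10 CPM, of 100 CPM and with none and a prior of 5 CPM, 331 at steps 2 and beyond, and 430 for the block alone. The 333 lower genes became 123 against touching edge spots, 178 against edge spots low in cardiomyocyte RNA, 566 after thinning, 811 and 694 with the floor of 10 CPM and with none, and 518 for the block alone. Without the block 183 genes were higher and 301 lower, of which 106 and 270 were among the 220 and the 333. The 7 higher lists became 4 below 3000 UMIs, against edge spots low in cardiomyocyte RNA and without the block. The 4 lower lists became 8 with a minimum of 1000 UMIs and at or above 3000 UMIs, 7 at steps 2 and beyond and against edge spots away from the patch, and 11 for the block alone. Among lists and genes past 2-fold, the direction turned for the acute phase list against touching edge spots (0.957) and for Krt8 after thinning (0.665), which leaves few UMIs of a rare gene. Among lists under 2-fold with intervals on opposite sides of 1, it turned for the macrophage (1.33 and 0.805), lipid-associated macrophage (1.22 and 0.799) and heme and iron lists (1.08 and 0.721) between all and touching edge spots, and Lyz2 (1.51 and 0.798), Spp1 (1.22 and 0.688), Apoe (1.48 and 0.879) and the genes C1qa, C1qb and C1qc went with them. Over 36 genes and 17 settings, 380 of 606 ratios moved by less than their counting interval, and over 34 lists 282 of 576.

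The step comparison, 161 higher and 261 lower, became 444 and 490 with means of per-spot values, 40 and 62 with a floor of 100 CPM, and 494 and 481 without the block. The comparison with the next largest unmarked patch, 321 higher and 120 lower, became 174 and 193 with TMM scaling (a log2 shift of -0.23), so that the split turned, and 151 and 68 with a floor of 100 CPM. Without hemoglobin genes in the total the lower count was 184.

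The 12 edge genes became 25 with the section that holds the patch (11 of the 12 kept), 0 without the section block (36 at an unadjusted p of 0.05), 20 without a filter on low counts and 6 with DESeq2 (all among the 12). The 0 lower genes became 7 with that section and 5 without the filter, and stayed 0 with DESeq2. Leaving out 1 section gave 7 to 19 higher and 0 to 4 lower genes: 12 and 0 without the control, 19 and 4 without 3 dpi, and 7 and 3 without 5 dpi, where 4 of the 12 kept their call. Causes of these changes were not tested.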
